A study of Mus musculus with 18 samples.

Results

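All 9 small-RNA libraries made from cells exposed to lipopolysaccharide (LPS) were compared with all 9 made from cells without it. The comparison used every one of the 18 samples of the series, and the cannabinoid given beforehand (none, CBD or THC) entered the model as a covariate. Of the 2134 features listed, 855 hairpins and 1279 mature miRNAs, 1363 entered the test because they held at least 10 reads over all samples together. They were 642 hairpins and 721 mature miRNAs. For each locus with at least 10 reads of both arms, the ratio of minor-arm to major-arm reads was tested as well, at 233 of 507 loci whose arms could be paired by name. The major arm of a locus is the arm with more reads over the 18 samples.

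The cells were BV-2, an immortalized mouse microglial line that serves as a model of the resident macrophages of the brain. There were 6 groups of 3 samples each. Without LPS these were control cells (Ctrl; the labels name no vehicle), cells given 10 µM cannabidiol (CBD) and cells given 10 µM Δ9-tetrahydrocannabinol (THC). With LPS they were cells given LPS alone at 100 ng/ml, and cells given CBD or THC at 10 µM and then LPS (CBD_LPS, THC_LPS), the cannabinoid preceding LPS by 2 h and LPS lasting 4 h. No label says that samples of a group came from separate cultures, so the p-values measure the spread between these samples, which may be technical.

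LPS is a component of the Gram-negative bacterial outer membrane that is sensed by Toll-like receptor 4 (TLR4) and activates NF-κB. A miRNA is transcribed as part of a longer RNA, is trimmed to a hairpin and is then cut into a duplex of a 5p and a 3p arm. One arm, the guide, is usually retained in an Argonaute protein and pairs with target mRNAs through its seed while the other arm is usually degraded.

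The loci whose arm ratio changed with LPS carry the main result, so their mature sequences are printed here, the major arm before the minor arm where the table held both, from RefSeq (GRCm38.p6). Each reads from 5′ to 3′, and the capitals mark the seed, bases 2 to 8.
miR-155-5p: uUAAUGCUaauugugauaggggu
miR-155-3p: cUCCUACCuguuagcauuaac
miR-146a-5p: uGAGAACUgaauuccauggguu
miR-146a-3p: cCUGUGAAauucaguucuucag
miR-21a-5p: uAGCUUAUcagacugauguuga
miR-21a-3p: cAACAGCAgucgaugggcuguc
miR-221-3p: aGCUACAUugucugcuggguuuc
miR-221-5p: aCCUGGCAuacaauguagauuucugu
miR-222-3p: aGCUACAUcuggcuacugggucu
miR-20a-5p: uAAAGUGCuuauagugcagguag
miR-20a-3p: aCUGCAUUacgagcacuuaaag
miR-25-3p: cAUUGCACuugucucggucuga
miR-25-5p: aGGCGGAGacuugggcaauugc
miR-27a-3p: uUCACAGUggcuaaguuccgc
miR-27a-5p: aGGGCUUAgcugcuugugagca

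miR-221-3p and miR-222-3p hold the same seed, GCUACAU, and the other arms shown each hold a different seed. The hairpins of mir-155 (chr16:84714140-84714204, plus strand) and mir-20a (chr14:115044157-115044263, plus strand), printed below with both arms in capitals, show how the arms lie at either side of the loop.
mir-155: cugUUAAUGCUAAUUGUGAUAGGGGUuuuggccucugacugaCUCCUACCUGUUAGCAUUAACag
mir-20a: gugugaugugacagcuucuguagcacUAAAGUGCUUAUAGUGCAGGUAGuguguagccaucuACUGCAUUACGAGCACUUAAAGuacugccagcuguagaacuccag

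Recovered reads per sample ranged from 442718 to 1057147, and the 3 reads that a count of 0 cannot exclude stood for 2.98 to 6.38 CPM. Here CPM means counts per 1000000 reads, scaled by the edgeR factor of the sample. The abundant hairpins mir-6240, mir-6236 and mir-6243 took 0.151% to 4.55% of the reads without LPS and 0.361% to 2.78% with it, ranges that overlap, and with this share as a covariate 26 features were called, 20 higher and 6 lower. The cells expressed the blood-lineage miRNA miR-142 (miR-142-5p mean 8672 CPM without LPS and 9000.5 CPM with it). Other miRNAs of the blood-lineage list were lower, miR-223-3p at 115 and 127 CPM and miR-150-5p at 7.27 and 4.09 CPM in the same order. None of 8 blood-lineage features tested was called, near the shares over all features tested, 1.32% higher and 0.22% lower. Markers of other cells were summed per sample. The neuron list (13 of 20 features tested) held 588 to 840.0 CPM without LPS and 585 to 769 CPM with it. Most of this sum was miR-128-3p. On the same list miR-9-5p averaged 9.19 CPM without LPS and 8.42 CPM with it, and miR-124-3p held 4 reads over the 18 samples. The muscle list (7 of 15) held 6.38 to 42.8 CPM without and 7.11 to 40.5 CPM with, and the endothelium list (3 of 3) 395 to 792 CPM without and 377 to 909 CPM with. The epithelium list (15 of 18) held 6252 to 9367 CPM without and 5687 to 9293 CPM with, nearly all of it miR-141-3p. The erythrocyte list (1 of 5) stayed at or under 5.74 CPM and the liver list (0 of 3 tested) at or under 2.87 CPM, and the arm miR-122-3p had no read in any sample. None of these marker features was called, again near the shares over all features tested, 1.32% higher and 0.22% lower. The mesenchyme list, described below, had 1 called feature of 9 tested, miR-145a-3p.

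LPS changed few features. The limma test at an adjusted p of at most 0.1 called 18 features higher with LPS (1.32% of 1363) and 3 lower (0.22%), from 12 loci, while without adjustment 95 features had a p no larger than 0.05. The median log2 change over all features tested was 0.03. Mature miRNAs contributed 12 of the higher features and 1 of the lower ones (of 721 tested), and hairpins 6 and 2 (of 642). The 18 higher features together took 4.81% to 6.85% (median 5.82%) of the reads without LPS and 9.05% to 11.1% (median 10.5%) with LPS. In 13 features, 0.954% of those tested, the 9 samples with LPS and the 9 without did not overlap, and in every one of the 13 the samples with LPS were the higher. Tested as read counts with edgeR (quasi-likelihood), 22 features were called, 19 higher and 3 lower, among them all 21. Scaling by library size alone called 18 higher and 12 lower, DESeq2 called 21 and 10, and scaling to miR-103-3p and miR-191-5p called 17 and 8 and moved the median log2 change over all features to -0.12. The libraries carry running numbers in 3 sets of 6 (22 to 27, 28 to 33 and 34 to 39), each with 1 sample of every group, and all 21 features had the same direction within each set. The 21 were called from these same samples, so this agreement is no independent support. With the set as a term limma called 26 higher and 7 lower, all 21 among them.

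**Figure D1:**
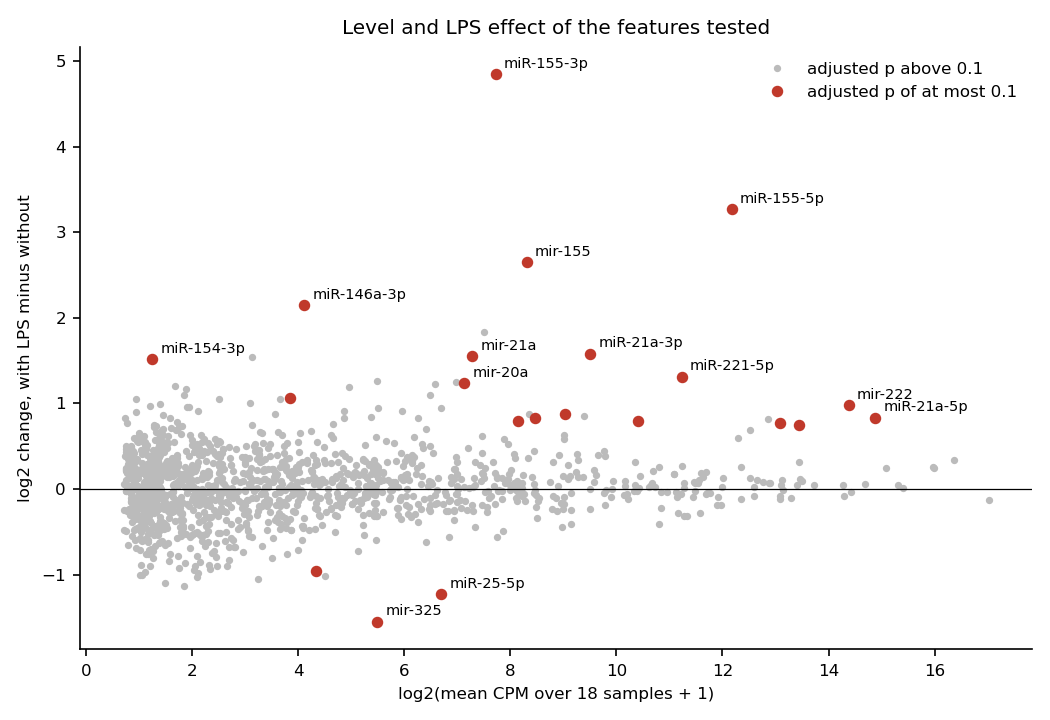
Each point is 1 of the 1363 features tested: the x axis gives log2 of its mean CPM over 18 samples plus 1, the y axis its log2 change with LPS minus without. Red points are the 21 features called at an adjusted p of at most 0.1, those of larger change named; miR-155-3p stands highest at 4.84 and mir-325 lowest at -1.55.

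**Figure D2:**
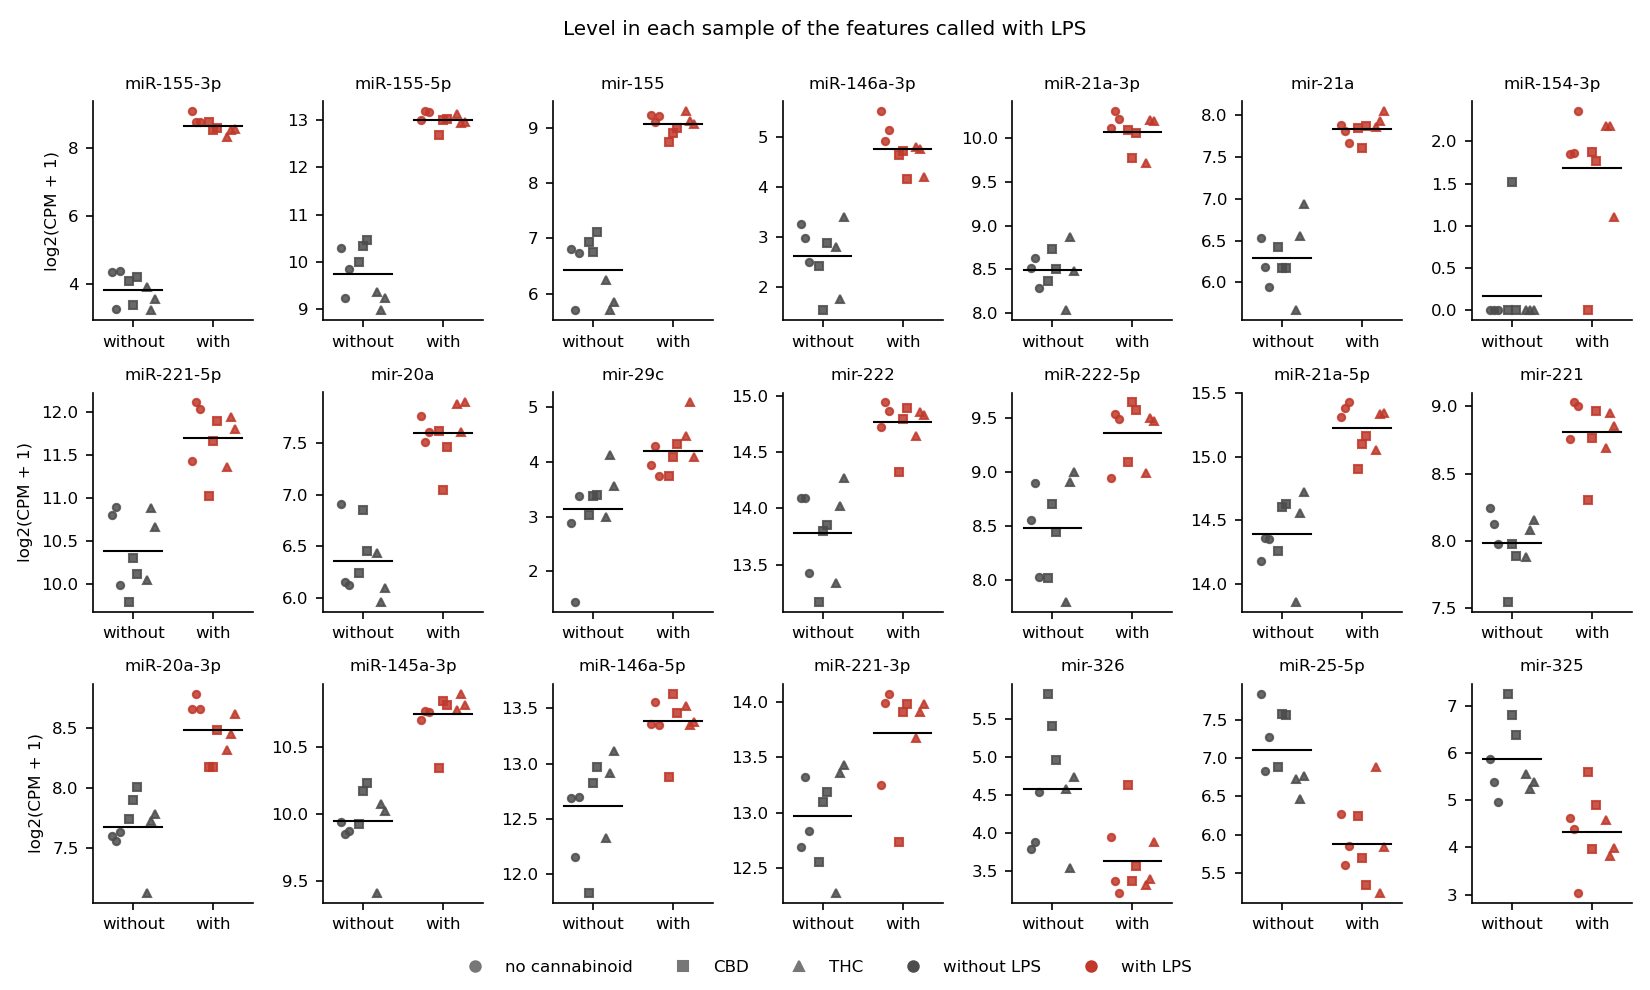
Level of each called feature in every sample, as log2(CPM + 1), without LPS (grey) and with LPS (red), with circles for no cannabinoid, squares for CBD and triangles for THC; the line is the mean of 9 samples. The panels are ordered by log2 change, each with its own y axis, and in 13 of them the red and grey points do not overlap.

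The largest changes were at mir-155, the miRNA of the Mir155hg (BIC) transcript, which macrophages induce on TLR stimulation and which targets Socs1 and the phosphatase SHIP1. It lies at chr16:84714140-84714204, plus strand, within an exon of the long non-coding RNA Mir155hg. The minor arm miR-155-3p stood at 8.26 to 19.8 CPM (median 13.9) without LPS and at 318 to 539 CPM (median 385) with LPS. It rose 28.7-fold (log2 change 4.84 ± 0.17 SE, adjusted p = 5.98e-14; limma, n = 9 against 9). The guide arm miR-155-5p stood at 499 to 1407 CPM (median 919) without LPS and at 6580.4 to 9334 CPM (median 8182) with it. Neither arm had an overlapping sample: every sample given LPS was above every sample without it, whether or not a cannabinoid was present. miR-155-5p rose 9.62-fold (log2 change 3.27 ± 0.16 SE, adjusted p = 2.20e-11). The hairpin feature mir-155 went from 50.8 to 138 CPM (median 105) to 424 to 627 CPM (median 545), without overlap, and rose 6.27-fold (log2 change 2.65 ± 0.19 SE, adjusted p = 5.45e-09). The seeds of both arms were unique among the mature miRNAs tested.

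mir-146a (chr11:43374397-43374461, minus strand), in no host gene of the annotation used, is an NF-κB target whose guide arm represses Irak1 and Traf6 in the TLR pathway. Its guide arm miR-146a-5p stood at 3647 to 8875 CPM (median 6634) without LPS and at 7509.6 to 12680.4 CPM (median 10647) with LPS. The groups overlapped, since the lowest sample with LPS, CBD_LPS 26, lay below the highest without. miR-146a-5p rose 1.71-fold (log2 change 0.77 ± 0.15 SE, adjusted p = 0.00671). Its minor arm miR-146a-3p was rare, with 1 to 7 reads in each sample without LPS, or 1.88 to 9.46 CPM (median 5.97), many of them at or near the 3-read floor. With LPS it stood at 16.8 to 44.5 CPM (median 26.005), above every sample without LPS, and it rose 4.42-fold (log2 change 2.15 ± 0.25 SE, adjusted p = 1.62e-05). The hairpin mir-146a, at 335 to 490.3 CPM (median 439) without and 343 to 619.6 CPM (median 587) with LPS, did not pass the test (log2 change 0.40 ± 0.13 SE, adjusted p = 0.252). miR-146b-5p, encoded elsewhere and sharing the seed GAGAACU with miR-146a-5p, averaged 6258 CPM without LPS and 6167 CPM with it (log2 change 0.02 ± 0.15 SE, adjusted p = 0.977).

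mir-21a, whose guide arm represses Pdcd4, lies at chr11:86584067-86584158, minus strand, within an annotated exon of Vmp1. All its 3 features rose and none overlapped between the groups. The guide arm miR-21a-5p stood at 14844 to 27020.4 CPM (median 21046) without LPS and at 30648 to 44087 CPM (median 40674) with LPS. It rose 1.78-fold (log2 change 0.83 ± 0.12 SE, adjusted p = 1.02e-04), from an already high level. The minor arm miR-21a-3p stood at 261 to 466.2 CPM (median 362) without and 837 to 1266 CPM (median 1106) with LPS. Its rise was 2.99-fold (log2 change 1.58 ± 0.12 SE, adjusted p = 2.04e-08), larger than that of the guide on the log2 scale. The hairpin mir-21a, at 49.7 to 121.6 CPM (median 71.8) without and 194 to 264 CPM (median 231) with LPS, rose 2.93-fold (log2 change 1.55 ± 0.15 SE, adjusted p = 6.98e-07). miR-21c, which holds the guide's seed AGCUUAU, averaged 4.33 CPM without LPS and 6.71 CPM with it (log2 change 0.36 ± 0.44 SE, adjusted p = 0.927).

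mir-221 (chrX:19146294-19146388, minus strand) and mir-222 (chrX:19146893-19146971, minus strand) are neighbours within 10 kb on the X chromosome, and their 3p arms, which share a seed, repress the cell cycle inhibitor p27Kip1. Of the 6 features of the pair, 5 rose (median log2 change over the 6, 0.85), where 1.32% of all features tested were higher and 0.22% lower. miR-221-5p, the minor arm, stood at 883 to 1895 CPM (median 1262) without LPS and at 2075 to 4427 CPM (median 3571) with LPS. The groups did not overlap, and it rose 2.48-fold (log2 change 1.31 ± 0.17 SE, adjusted p = 3.42e-05). The major arm miR-221-3p stood at 4967 to 11038 CPM (median 8749) without and 6843 to 17235 CPM (median 15339) with LPS, and the 2 lowest samples with LPS reached into the range without. It rose 1.68-fold (log2 change 0.75 ± 0.19 SE, adjusted p = 0.0589), a call lost without Ctrl 22, Ctrl 34, CBD 24, THC 25, LPS 29, LPS 35, CBD_LPS 32, CBD_LPS 38, THC_LPS 33 or THC_LPS 39, each left out alone (adjusted p = 0.106 to 0.152 over the 10). The hairpin mir-221, at 186 to 302 CPM (median 252) without and 315 to 522 CPM (median 462) with LPS, rose 1.77-fold without overlap (log2 change 0.83 ± 0.11 SE, adjusted p = 7.20e-05).

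At mir-222 the hairpin feature held 293633 reads over the 18 samples, against 32658 for miR-222-3p and 7175 for miR-222-5p, and how the authors divided reads between a hairpin and its arms is not given in the sources used here. The hairpin mir-222 stood at 9218 to 19695 CPM (median 14783) without LPS and at 20468 to 31464 CPM (median 29208) with LPS, and the groups did not overlap. It rose 1.97-fold (log2 change 0.98 ± 0.14 SE, adjusted p = 1.03e-04). miR-222-5p, at 221.7 to 512 CPM (median 374) without and 490.4 to 798 CPM (median 719.9) with LPS, rose 1.84-fold with overlapping groups (log2 change 0.88 ± 0.18 SE, adjusted p = 0.00672). miR-222-3p did not pass the test. Its level was 1207 to 2861 CPM (median 2302) without and 1481 to 3278 CPM (median 2826) with LPS (log2 change 0.27 ± 0.19 SE, adjusted p = 0.927).

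mir-20a belongs to the miR-17~92 cluster, a polycistron known for promoting proliferation, and lies within an exon of its host transcript Mir17hg. Of the features tested from the 6 loci of this cluster, 2 rose and both came from mir-20a. The median log2 change was -0.06 over 16 of them, which leaves out the hairpins mir-18a and mir-92a-1. Neither of those hairpins was called (log2 change -0.32 ± 0.21 SE and -0.10 ± 0.11 SE). Over all features tested 1.32% were higher and 0.22% lower, and nothing is read from so small a count. The minor arm miR-20a-3p stood at 139 to 256 CPM (median 211) without LPS and at 288 to 439.6 CPM (median 356) with LPS. No sample overlapped, and it rose 1.74-fold (log2 change 0.80 ± 0.13 SE, adjusted p = 5.78e-04). The hairpin mir-20a, at 61.4 to 119 CPM (median 74.6) without and 131 to 237 CPM (median 195) with LPS, rose 2.36-fold, also without overlap (log2 change 1.24 ± 0.16 SE, adjusted p = 3.91e-05). The guide arm miR-20a-5p did not pass the test. It stood at 1445 to 2267 CPM (median 1835) without and 1563 to 2315 CPM (median 1729) with LPS (log2 change -0.04 ± 0.11 SE, adjusted p = 0.952). Of the other guides that share its seed AAAGUGC, miR-17-5p averaged 3532 CPM without LPS and 3433 CPM with it (log2 change -0.04 ± 0.11 SE, adjusted p = 0.952), and miR-93-5p 5618 and 6151 CPM (log2 change 0.13 ± 0.19 SE, adjusted p = 0.941). Neither of them nor miR-106a-5p or miR-106b-5p was called.

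miR-145a-3p is an arm of a miRNA known from smooth muscle and other mesenchymal cells. It stood at 680.1 to 1201 CPM (median 983) without LPS and at 1295 to 1903 CPM (median 1750.2) with LPS, with no overlap. It rose 1.74-fold (log2 change 0.80 ± 0.11 SE, adjusted p = 1.02e-04). It was the 1 feature called among the 9 of 13 tested on the mesenchyme list, whose summed level was 982 to 1686 CPM without LPS and 1582 to 2358 CPM with it. The hairpin mir-145a and the arm miR-145a-5p held 6 and 3 reads over the 18 samples, so no arm ratio was tested. Against these, miR-145a-3p held 18661 reads, and whether they come from the mir-145a locus was not tested. miR-143-3p, of the miRNA that is usually transcribed with miR-145, averaged 21.3 CPM without and 19.04 CPM with LPS (log2 change -0.10 ± 0.22 SE, adjusted p = 0.952).

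A pair of features of low count were also called higher. The hairpin mir-29c (chr1:195037547-195037634, plus strand), of the miR-29 family that represses collagen genes, stood at 1.71 to 16.5 CPM (median 9.32) without LPS and at 12.4 to 33.1 CPM (median 16.0) with LPS. The groups overlapped, and it rose 2.10-fold (log2 change 1.07 ± 0.27 SE, adjusted p = 0.0556), a call lost without CBD 24, THC 25, LPS 23, LPS 29, CBD_LPS 38 or THC_LPS 33, each left out alone (adjusted p = 0.103 to 0.147 over the 6). Its arms did not pass: miR-29c-5p had a log2 change of 0.19 and miR-29c-3p of 0.09, and of the 11 miR-29 features the hairpin was the 1 called (median log2 change 0.15). With 1.32% of all features tested higher and 0.22% lower, nothing is read from this count. miR-154-3p comes from the imprinted Dlk1-Dio3 miRNA region, in an intron of the long non-coding RNA Mirg. It had 18 reads in 8 of the 9 samples with LPS and 1 read in 1 of the 9 samples without. It reached the minimum of 10 reads through the samples with LPS alone, so the values that follow are no independent support. DESeq2 gave no adjusted p for it. Per depth the ratio of the summed reads was 15.8, with an exact 95% interval of 2.498 to 659 that covers counting error only, and the limma test gave an adjusted p of 0.0147. Of the 14 features tested from loci within 10 kb of mir-154, miR-154-3p was the 1 called (median log2 change 0.10). This count too is small beside the shares over all features tested, 1.32% higher and 0.22% lower, and nothing is read from it.

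The 3 lower features were miR-25-5p, mir-325 and mir-326, and all overlapped between the groups. miR-25-5p is the minor arm of mir-25 (chr5:138165321-138165404, minus strand), which lies with mir-93 and mir-106b in the gene of the replication factor Mcm7. It stood at 87.3 to 229.7 CPM (median 118) without LPS and at 36.6 to 117 CPM (median 56.2) with LPS. The highest sample with LPS, THC_LPS 27, lay within the range without. miR-25-5p was 2.34-fold lower with LPS (log2 change -1.23 ± 0.23 SE, adjusted p = 0.00316). The guide arm miR-25-3p stood at 7309.9 to 11246 CPM (median 8463) without and 7623 to 9920.1 CPM (median 8176) with LPS and did not pass (log2 change -0.08 ± 0.09 SE, adjusted p = 0.927). No other of the 9 features of this cluster was called, which is near the shares over all features tested, 1.32% higher and 0.22% lower. The median log2 change of the 9 was -0.26.

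The hairpin mir-325 (chrX:105379082-105379179, minus strand) lies in an intron of the long non-coding RNA 5330434G04Rik. It stood at 30.3 to 152 CPM (median 45.7) without LPS and at 7.21 to 47.4 CPM (median 19.9) with LPS. The 3 samples given CBD alone were the highest without LPS, at 82.2, 111 and 152 CPM, and 1 sample with LPS, CBD_LPS 26, reached into the range of the Ctrl and THC samples. mir-325 was 2.93-fold lower (log2 change -1.55 ± 0.26 SE, adjusted p = 8.67e-04). Its mature arms held 4 reads (miR-325-3p) and 3 reads (miR-325-5p) in all, so the hairpin alone was measured. The hairpin mir-326 (chr7:99552269-99552363, plus strand), in an intron of Arrb1, stood at 10.6 to 55.9 CPM (median 22.9) without and 8.24 to 23.7 CPM (median 9.46) with LPS. Over the 18 samples mir-326 was 1.94-fold lower (log2 change -0.96 ± 0.26 SE, adjusted p = 0.0960), a call that 18 of 36 alternatives lost. Of these, 12 left out 1 sample alone, namely Ctrl 34, CBD 24, CBD 30, CBD 36, THC 25, THC 37, LPS 29, LPS 35, CBD_LPS 32, CBD_LPS 38, THC_LPS 27 or THC_LPS 33 (adjusted p = 0.129 to 0.241 over the 12). Its abundant arm miR-326-3p did not pass (log2 change 0.41 ± 0.35 SE, adjusted p = 0.927).

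Of the features nearest the threshold, mir-326 was the last inside it, with an adjusted p of 0.096, and the hairpin mir-3098, with 15 reads in all and an adjusted p of 0.101, the first outside. Then followed the hairpin mir-1905 (adjusted p = 0.126) and the minor arm miR-181b-1-3p (adjusted p = 0.146), and all 3 were lower with LPS.

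miRNAs were also grouped by what they are known for. Of the 32 features tested on the list of TLR4 and NF-κB responsive miRNAs, 13 were higher and none lower, where 1.32% of all features tested were higher and 0.22% lower. The median log2 change of the list was 0.40 against 0.03 over all features tested. All 13 came from mir-155, mir-146a, mir-21a, mir-221 and mir-222. The list was drawn up with earlier results of these data known, so its count is no independent evidence of a direction. Its other members did not pass, and their log2 changes went in either direction. miR-132-3p, a CREB-dependent miRNA, averaged 555 CPM without LPS and 467 CPM with it (log2 change -0.23 ± 0.14 SE, adjusted p = 0.890). miR-212-3p, from the same cluster, averaged 185 and 135 CPM (log2 change -0.44 ± 0.17 SE, adjusted p = 0.416). miR-147-3p, known as a late TLR-induced miRNA, averaged 7.39 and 7.20 CPM (log2 change -0.26 ± 0.45 SE, adjusted p = 0.952). In the other direction, miR-187-3p averaged 37.2 and 46.8 CPM (log2 change 0.34 ± 0.46 SE, adjusted p = 0.927).

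None of the 46 features tested on the list of macrophage activation and restraint was called (median log2 change 0.07), which is near the shares over all features tested, 1.32% higher and 0.22% lower. On this list miR-223-3p averaged 115 CPM without LPS and 127 CPM with it (log2 change 0.12 ± 0.29 SE, adjusted p = 0.952), and miR-125b-5p, which is known to repress TNF, 1525 and 1794 CPM (log2 change 0.21 ± 0.22 SE, adjusted p = 0.927). None of the 32 let-7 features was called either, again near those shares (median 0.01). Of the 27 features of miR-17~92 and its paralogues 2 were higher, both of mir-20a, and none lower (median -0.04), and nothing is read from so small a count.

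The arm ratio was called higher with LPS at 6 of 233 loci (2.58%) and lower at 2 (0.858%) by limma at an adjusted p of at most 0.1, while 19 loci had an unadjusted p of at most 0.05. A ratio of reads within a sample needs no scaling between samples. Over the 233 loci the median was 11.1 minor-arm reads per 100 major-arm reads without LPS and 10.5 with LPS, and the ratio was higher with LPS at 101 of the 233 loci, passing or not. In 34 of the loci the major arm is shared with another locus tested. At 3 loci, 1.29%, the ratios of the 9 samples with LPS and the 9 without did not overlap, namely mir-155, mir-21a and mir-222. All 8 called ratios had the same direction within each of the 3 sample-number sets. They were called from these same samples, so this is no independent support.

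**Figure D3:**
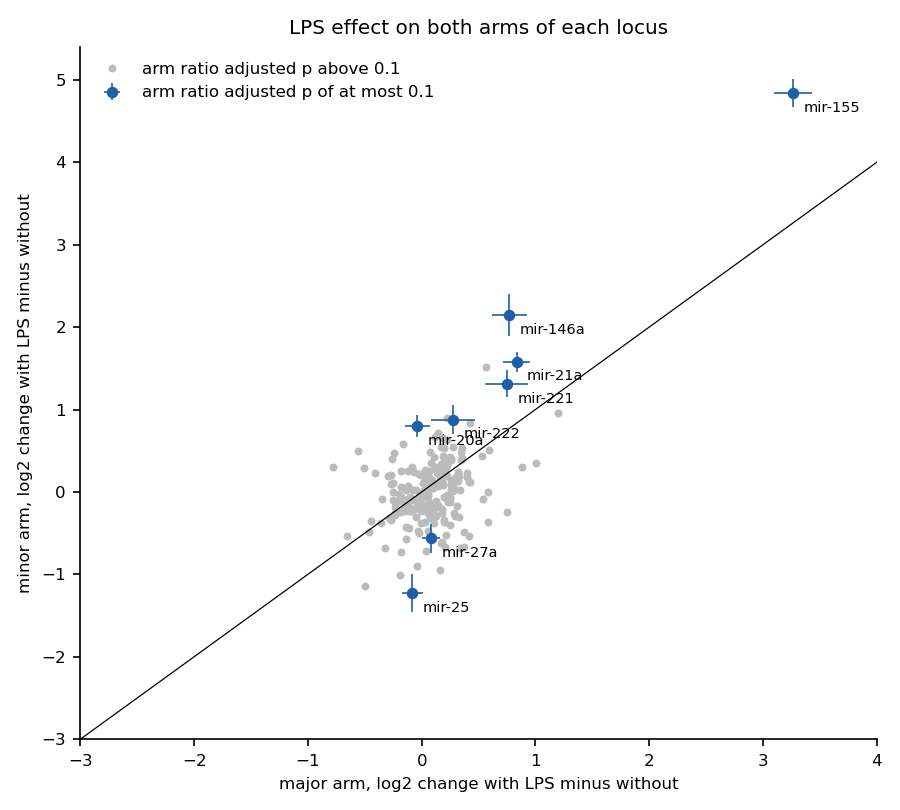
Each point is 1 of the loci tested: log2 change with LPS minus without of the major arm (x axis) against that of the minor arm (y axis). The line marks equal change; blue points with SE bars are the 8 loci whose arm ratio was called, 6 above the line and 2 below it.

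At 4 loci both arms rose and the minor arm rose by more. mir-155 had 0.727 to 2.15 (median 1.54) miR-155-3p reads per 100 miR-155-5p reads without LPS and 3.56 to 6.63 (median 4.64) with LPS. Its ratio rose 3.04-fold (log2 change 1.60 ± 0.17 SE, adjusted p = 3.67e-07). mir-21a had 1.32 to 1.97 (median 1.70) minor-arm reads per 100 major-arm reads without and 2.46 to 3.55 (median 2.81) with LPS, and its ratio rose 1.68-fold (log2 change 0.75 ± 0.10 SE, adjusted p = 7.50e-06). At both loci every sample with LPS lay above every sample without. mir-146a held few minor-arm reads, 0.0260 to 0.150 (median 0.107) per 100 without and 0.149 to 0.424 (median 0.241) with LPS. Its ranges met at their ends, and the ratio rose 2.68-fold (log2 change 1.42 ± 0.30 SE, adjusted p = 0.00300). For mir-221 the ratio was 11.9 to 26.9 (median 14.7) per 100 without and 20.2 to 30.3 (median 24.4) with LPS. The overlap came from Ctrl 22 and THC 25, the highest samples without LPS, and the ratio rose 1.48-fold (log2 change 0.56 ± 0.12 SE, adjusted p = 0.00341).

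At the other 4 loci the major arm did not pass the test. mir-20a had 8.40 to 14.6 (median 10.8) miR-20a-3p reads per 100 miR-20a-5p reads without LPS and 13.7 to 28.04 (median 20.6) with LPS. The lowest sample with LPS, a THC_LPS sample, lay below the highest without, a THC sample, and the ratio rose 1.79-fold (log2 change 0.84 ± 0.13 SE, adjusted p = 6.58e-05). For mir-222 the ratio was 13.2 to 19.98 (median 18.1) per 100 without and 22.5 to 36.9 (median 25.2) with LPS, without overlap, and it rose 1.52-fold (log2 change 0.60 ± 0.11 SE, adjusted p = 3.68e-04). When the reads of each hairpin were added to its major arm, an alternative chosen after seeing the data, the mir-222 ratio did not pass (log2 change -0.027, adjusted p = 0.982), and the other 7 kept their call. mir-25 had 1.08 to 2.72 (median 1.54) miR-25-5p reads per 100 miR-25-3p reads without and 0.458 to 1.18 (median 0.690) with LPS, 1 sample with LPS lying within the range without. Its ratio was 2.22-fold lower with LPS (log2 change -1.15 ± 0.18 SE, adjusted p = 6.76e-05). mir-27a (chr8:84208672-84208758, plus strand), of the miR-23a27a24-2 cluster, had 2.91 to 5.54 (median 3.41) per 100 without and 1.82 to 4.17 (median 2.17) with LPS, and its ratio was 1.57-fold lower (log2 change -0.65 ± 0.15 SE, adjusted p = 0.00949). Neither of its arms passed alone, with log2 changes of -0.56 ± 0.17 SE for miR-27a-5p and 0.08 ± 0.08 SE for miR-27a-3p.

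**Figure D4:**
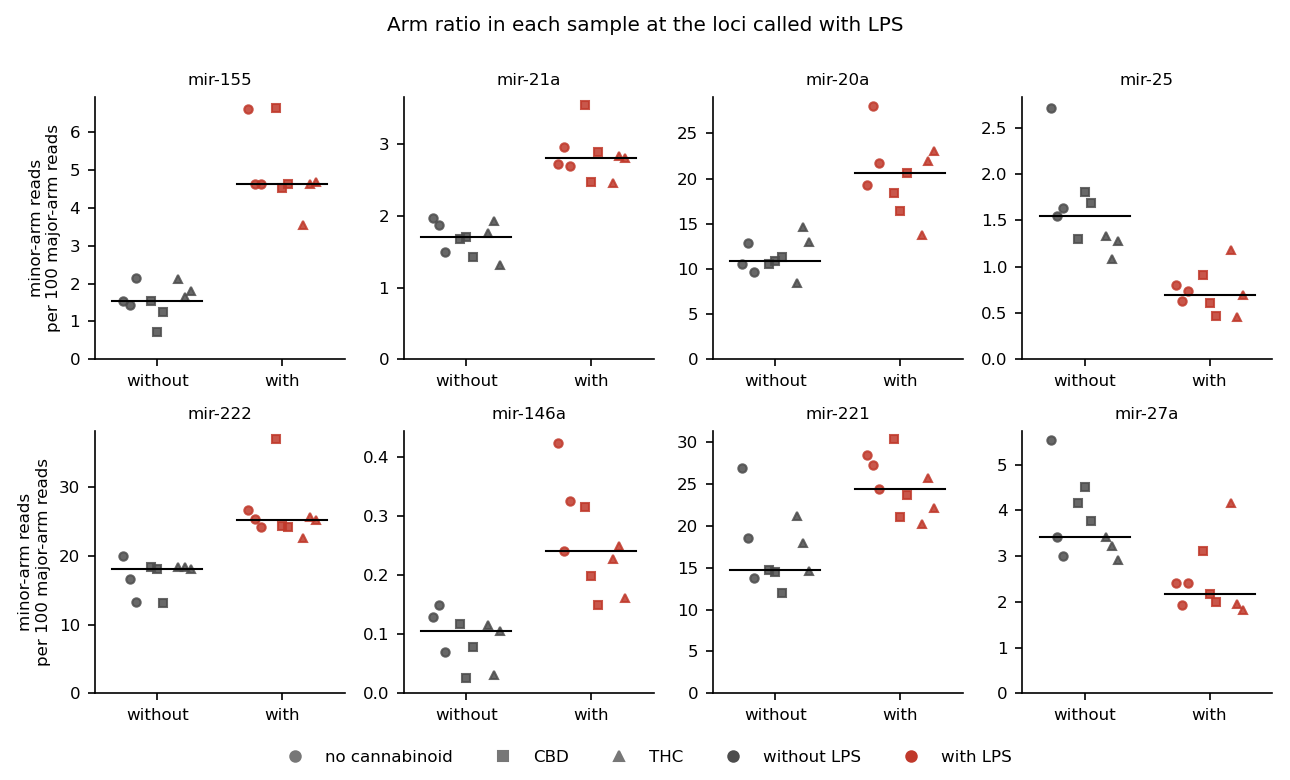
Minor-arm reads per 100 major-arm reads (y axis, from 0) in each sample without LPS (grey) and with LPS (red) at the 8 loci called, with circles for no cannabinoid, squares for CBD and triangles for THC; the line is the median of 9 samples. Red points lie above grey ones at mir-155, mir-21a and mir-222 without overlap and mostly below at mir-25 and mir-27a.

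The ratio of mir-181a-1 was the first outside the threshold. It had 1.4996 to 4.73 (median 1.94) minor-arm reads per 100 major-arm reads without LPS and 0.932 to 2.996 (median 1.24) with LPS (log2 change -0.65 ± 0.20 SE, adjusted p = 0.107), and its major arm miR-181a-5p is also made from another locus. Among loci with a called feature but no called ratio, mir-29c held nearly as many reads of miR-29c-3p as of miR-29c-5p and did not pass (log2 change -0.10 ± 0.16 SE, adjusted p = 0.895). mir-154 (log2 change 1.21 ± 0.70 SE, adjusted p = 0.693) and mir-326 (log2 change -1.08 ± 0.74 SE, adjusted p = 0.774) had under 20 minor-arm reads in all. By kind, 7 of the 232 minor arms of these loci were called higher and 1 lower (median log2 change 0.02), and 4 of the 216 major arms higher and none lower (median 0.08). Called were 3.45% of the minor arms and 1.85% of the major arms, where 1.32% of all features tested were higher and 0.22% lower. The difference between the kinds of arm was not tested. At 4 loci the minor arm alone was called, at 4 both arms and at 0 the major arm alone. Of those with the minor arm alone, 3 were mir-20a, mir-222 and mir-25, and the fourth was mir-154.

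The LPS effect was then estimated within each cannabinoid condition, in comparisons that share no samples. The comparisons do share 1 estimate of the spread per feature, taken over the 6 groups, so their lists of calls are not independent. At an adjusted p of at most 0.1 the LPS effect was called for 14 features in cells without cannabinoid (1.03% of those tested, 13 higher and 1 lower), for 15 in cells given CBD (1.1%, 9 higher and 6 lower) and for 11 in cells given THC (0.807%, 10 higher and 1 lower). All 21 features called over the 18 samples had the same direction in each condition. They were chosen by the effect pooled over these conditions, so this agreement is no independent support. Called in all 3 were miR-155-3p, miR-155-5p, mir-155, miR-21a-3p, mir-21a and miR-146a-3p. Cells without cannabinoid and cells given CBD shared 8 calls, 57.1% and 53.3% of their lists. Cells without cannabinoid and cells given THC shared 10 calls, 71.4% and 90.9% of their lists, and cells given CBD and cells given THC shared 6, 40% and 54.5%. These counts moved with the model and the samples used. With the sample-number set as a term they were 17, 19 and 17 in the same order, and in samples 28 to 39 alone 47, 230 and 15. They also moved with single libraries. Without LPS 23, Ctrl 28 or LPS 29 the count in cells without cannabinoid was 9, and without Ctrl 34 it was 8. In cells given CBD it was 41 without CBD 24, 7 without CBD 30 or CBD_LPS 38, and 6 without CBD_LPS 32, and in cells given THC it was 7 without THC 25 or THC_LPS 33.

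**Figure D5:**
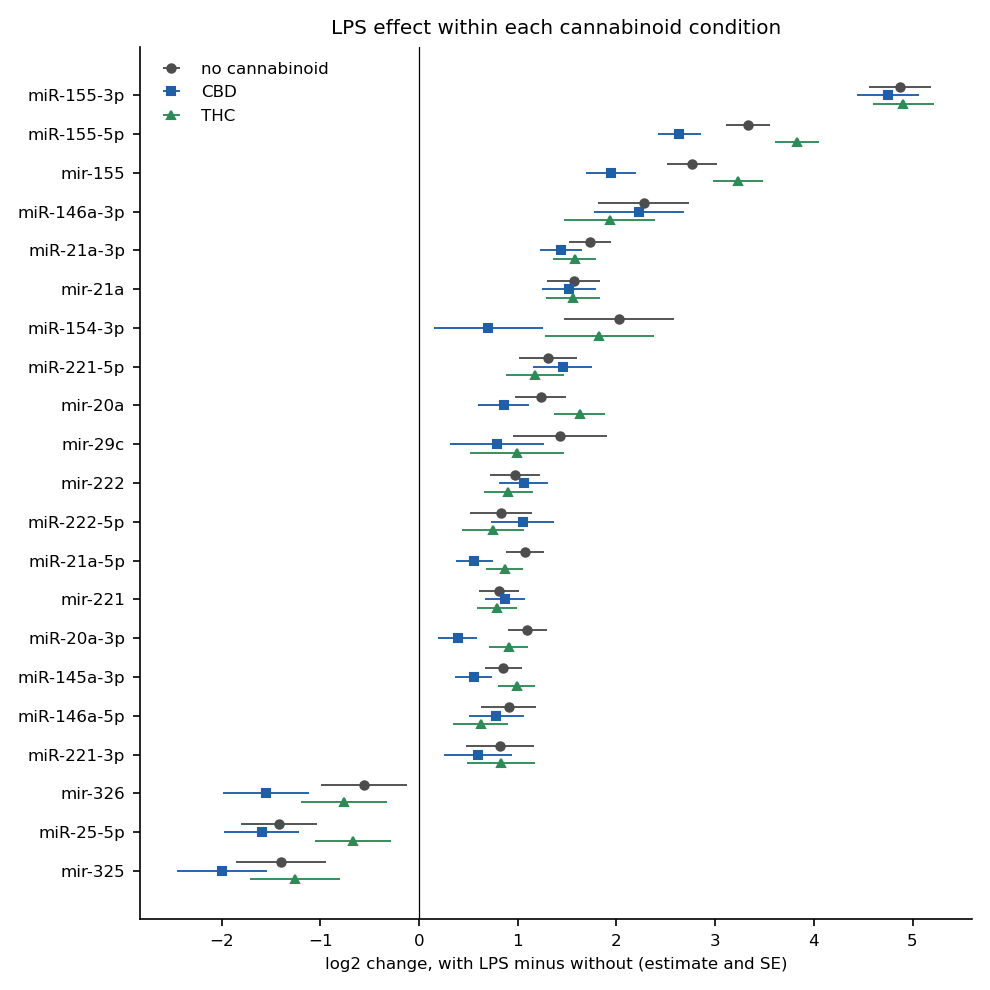
Log2 change with LPS minus without (x axis, estimate and SE of the 6-group model, 3 samples against 3) of the 21 called features in cells without cannabinoid (circles), with CBD (squares) and with THC (triangles). All 3 estimates lie on the same side of 0 for every feature, which the choice of these features from the same samples favours. The estimates of miR-155-5p were 2.64 with CBD and 3.83 with THC, and those of the hairpin mir-155 were 1.94 and 3.23. Neither passed the test of the difference between conditions (limma F test, adjusted p = 0.548 and 0.647).

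A test of the difference between the 3 conditions called 0 of 1363 features with limma (82 at an unadjusted p of at most 0.05) and 0 with edgeR (57). This model holds no term for the sample-number sets. With the set as a term limma called 1 feature, and in samples 28 to 39 alone 111, so the count of 0 depends on the model and the samples. In the model without the set, 2 of the 21 features had an unadjusted p of at most 0.05, and both belong to mir-155. The LPS change of miR-155-5p was 3.33 ± 0.22 SE without cannabinoid, 2.64 ± 0.22 SE with CBD and 3.83 ± 0.22 SE with THC on the log2 scale (limma F test of the difference, adjusted p = 0.548). Without LPS it averaged 922 ± 325 CPM in Ctrl, 1241 ± 196 CPM in CBD and 585 ± 80.6 CPM in THC samples (SD, n = 3). With LPS the averages were 8921 ± 662 CPM for LPS alone, 7698 ± 971 CPM for CBD_LPS and 8282 ± 567 CPM for THC_LPS. The hairpin mir-155 had changes of 2.77 ± 0.25, 1.94 ± 0.25 and 3.23 ± 0.25 SE in the same order (limma F test of the difference, adjusted p = 0.647). miR-155-3p had 4.87 ± 0.31, 4.75 ± 0.31 and 4.91 ± 0.31 SE (adjusted p = 0.998).

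Beyond the 21, 7 features were called in 1 condition alone. In cells without cannabinoid miR-10b-5p was higher (log2 change 2.79 ± 0.67 SE, adjusted p = 0.0681) and miR-5123 lower. In cells given CBD the hairpins mir-3096a, mir-3096b and mir-5112 and the rare miR-34c-5p (11 reads in all) were lower, mir-3096b with a log2 change of -0.96 ± 0.17 SE (adjusted p = 0.00570). In cells given THC the hairpin mir-1188 was lower (log2 change -2.22 ± 0.48 SE, adjusted p = 0.0380). None of the 7 passed over the 18 samples, and none passed the test of the difference between conditions in the model without the set, where their adjusted p ranged from 0.323 to 0.654.

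The arm ratios of the 8 called loci kept their direction in each condition, but the loci were called from these same samples. Within the conditions the ratio was called at 4 loci without cannabinoid, 7 with CBD and 2 with THC, mir-155 and mir-21a among them each time. Of the 7 with CBD, mir-5616 was the 1 not among the 8. The test of the difference between conditions called 0 of 233 ratios (9 at an unadjusted p of at most 0.05).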

How the data were processed

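Small RNA of BV-2 cells was sequenced in 18 samples. Per the paper's methods, the authors aligned reads to the mouse miRBase sequences with BWA, a read being allowed up to 10 mappings, and used edgeR to find differentially expressed miRNAs. How they scaled the values is not stated there and was worked out here from the values. The miRBase version used for the alignment and how a read was divided between a hairpin and its arms are not given in the sources used here. The deposited values are a signal that matched counts per 1000000 reads scaled by the trimmed-mean (TMM) factor of the sample, called CPM here. Whole reads were recovered for 100% of values (tolerance 0.001 read), and TMM factors computed from them gave the deposited scale back within a relative deviation of 5.42e-09. Samples held 442718 to 1057147 reads. Replicate pairs differed beyond sampling noise (chi-square per degree of freedom 3.04 to 98.6).

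log2(CPM + 1) was tested with limma 3.58.1 (R 4.3.3, mean-variance trend) on LPS with cannabinoid as a covariate, for features with at least 10 reads, with Benjamini-Hochberg adjustment and a threshold of 0.1. This pseudocount understates the change of features of low count. Arm ratios were log2 ratios of reads with 0.5 added to each arm, at loci with at least 10 reads of each. A model of the 6 groups gave the effect within each cannabinoid condition and the F test of the difference between conditions. Named are all called features, up to 30, with the other arm and the hairpin, up to 10 called arm ratios, and examples from each list. Members and lists were chosen with earlier results of these data known. Alternatives were other scalings, pseudocounts, read minimums and covariates, edgeR 4.0.16 and DESeq2 1.42.0 on the recovered reads, subsets of features or samples, and leaving out each sample. The fits were tested on simulated data. Positions and sequences are from RefSeq (GRCm38.p6), and host genes from GENCODE M21.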

Additional observations from a re-analysis of the deposited data

Results flagged for a closer look

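Among the called features and arm ratios, each of the 58 groups of 9 samples was examined for a highest or lowest sample standing apart from the rest (Dixon's 95% criterion), and in 10 of them a sample did, CBD_LPS 26 in 6, THC 25 in 2, and CBD 30 and Ctrl 28 in 1 each. Chance gives about 1 in 20 groups. Levels here are log2(CPM + 1).

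CBD_LPS 26 was the lowest sample with LPS for miR-155-5p (12.68), miR-146a-5p (12.87), mir-222 (14.32), mir-221 (8.302) and miR-145a-3p (10.34), and had the highest arm ratio of mir-222 with LPS (log2 ratio -1.439). Without CBD_LPS 26, 25 features were called in place of 21.

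THC 25 was the lowest sample without LPS for miR-145a-3p (9.412) and miR-20a-3p (7.131). For miR-154-3p, CBD 30 was the 1 sample without LPS that had a read (1.525). All others without LPS were at 0, so a read in any 1 sample would have stood apart. For mir-29c, Ctrl 28 was the lowest sample without LPS (1.438).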

How the results depend on the processing

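Of 986 recomputed values for 29 named features and arm ratios, 947 kept their direction and side of the threshold, 38 kept the direction but no longer passed (mir-326 18, miR-221-3p 11, mir-29c 8 and miR-154-3p 1) and 1 reversed, the arm ratio of mir-222 (-0.027 with hairpin reads added to the major arm). The count of 21 features became 13 with mature miRNAs alone, 7 with hairpins alone, 33 with the sample-number set as a term and 32 in samples 28 to 39 alone. All 21 were among the 33, and 19 among the 32. The cause was not tested. In samples 28 to 39 alone the counts were 47 without cannabinoid, 230 with CBD, 111 for the difference between conditions and 26 for features without overlap, and for arm ratios 12. With the set as a term 17 features were called with THC and 1 for the difference between conditions, which was also 1 with a minimum of 100 reads. Leaving out 1 sample at a time gave 18 to 25 features, 8 to 11 arm ratios, 13 to 15 features without overlap, 8 to 17 calls without cannabinoid, 6 to 41 with CBD, 7 to 14 with THC and 0 to 1 for the difference between conditions. The labels do not say that the sample-number sets pair the samples. The set as a term is a block over them, and its counts are those above. Features with few reads, such as miR-154-3p and miR-146a-3p without LPS, are limited by depth, since 3 reads stood for up to 6.38 CPM. Arm ratios are ratios of reads, not of molecules.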
